A study of Mus musculus with 4 samples.

Results

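Scavenger receptors are cell-surface proteins that bind modified lipoproteins, polyanions, dying-cell debris and extracellular matrix fragments and carry them into the cell for breakdown. Here 10 genes of scavenger and endocytic receptors (Msr1, Marco, Stab1, Stab2, Mrc1, Cd163, Lyve1, Scarb1, Colec12 and Olr1) were taken by symbol from the 56832 genes listed for each library, and the receptors with high counts were set beside those at or near 0. The 10 were not picked by a measured value, although results of these data were known when they were proposed. Their RNA was counted in 4 libraries made from microglia, the brain's own macrophages, after sorting from mouse primary glial culture (replicates 1 to 4 of the group cMG, strain C57BL/6, labelled female). The labels give no genotype, treatment, culture time, age or sorting gate, and do not say whether the libraries came from separate animals or cultures, so the SDs and p-values given here describe library-to-library spread that may be no more than technical. The wider series set these cells beside hematopoietic progenitors grown with or without glia; those groups were not analysed here and no comparison between groups was possible.

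In macrophages these receptors mark particular positions and states. Border macrophages of the meninges and vessels are known for Mrc1, Stab1, Lyve1 and Cd163, whereas microglia in the brain tissue are known for low levels of them; Stab2 and Lyve1 are best known from sinusoidal and lymphatic endothelium. Msr1 and Marco are collagen-like class A receptors, Scarb1 takes up cholesterol from high-density lipoprotein, and Olr1 binds oxidised low-density lipoprotein on endothelium.

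Promoter windows are shown for the stabilin pair and for Mrc1 and Cd163, because in each pair 1 gene was abundant and the other was at or near 0. The windows run from 250 bases before to 50 bases after the annotated start. They come from RefSeq on GRCm38.p6, which is not the build the authors aligned to. A window was matched for 6 of the 10 receptors, and none for Msr1, Colec12, Scarb1 or Lyve1. Capitals mark GAGGAA on either strand, the core letters of sites for PU.1, the transcription factor encoded by Spi1.
Stab1, chr14:31168592-31168891, minus strand: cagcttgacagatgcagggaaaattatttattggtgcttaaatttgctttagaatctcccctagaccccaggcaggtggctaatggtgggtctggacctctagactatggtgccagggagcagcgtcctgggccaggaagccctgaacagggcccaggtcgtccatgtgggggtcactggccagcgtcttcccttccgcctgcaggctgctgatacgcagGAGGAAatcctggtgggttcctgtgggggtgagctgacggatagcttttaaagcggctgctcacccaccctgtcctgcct
Stab2, chr10:87007893-87008192, minus strand: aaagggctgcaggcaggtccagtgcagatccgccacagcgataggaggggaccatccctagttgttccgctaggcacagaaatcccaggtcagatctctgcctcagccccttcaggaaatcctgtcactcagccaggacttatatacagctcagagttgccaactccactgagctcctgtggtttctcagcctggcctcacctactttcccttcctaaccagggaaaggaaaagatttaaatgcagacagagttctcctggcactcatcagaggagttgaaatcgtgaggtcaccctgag
Mrc1, chr2:14229164-14229463, plus strand: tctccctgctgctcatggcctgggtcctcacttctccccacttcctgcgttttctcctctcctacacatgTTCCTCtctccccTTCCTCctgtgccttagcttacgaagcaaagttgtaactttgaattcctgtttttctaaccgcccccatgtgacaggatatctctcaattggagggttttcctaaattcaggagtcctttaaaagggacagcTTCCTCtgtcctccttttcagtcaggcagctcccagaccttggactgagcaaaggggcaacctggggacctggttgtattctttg
Cd163, chr6:124304401-124304700, plus strand: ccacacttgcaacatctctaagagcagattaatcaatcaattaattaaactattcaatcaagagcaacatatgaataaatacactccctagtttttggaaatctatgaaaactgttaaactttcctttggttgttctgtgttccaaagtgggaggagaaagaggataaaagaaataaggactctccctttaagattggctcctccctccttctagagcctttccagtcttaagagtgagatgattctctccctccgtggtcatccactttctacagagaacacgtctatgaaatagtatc

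The abundant Stab1 and Mrc1 had 1 and 3 such matches, and Stab2 and Cd163 had 0. Marco and Olr1, both near 0 in these libraries, had 1 match each. Among receptors with a window, a match thus did not separate high from low. Stab1 and Mrc1 were the only high receptors with a window. Of all 32851 windows in the table, 28.3% held the letters. The AP-1 site was searched as TGACTCA and found in 5.2% of all windows. A box with the letters TATAAA, known to position transcription start, was in 13.6% of them. The MAF site was taken as TGCTGAC and found in 4.67%. The GC box, GGGCGG, was in 35.7%. On either strand, Olr1 had 1 AP-1 match, Mrc1 had 1 GC box match and the other 4 windows had 0 of these 4 motifs. Stab1 and Olr1 held 7 CpG pairs each, Stab2 4, Mrc1 3, Cd163 2 and Marco 0. The median over all windows was 7. This count did not separate high from low among the receptors with a window either. These are matches of letters and not binding sites, and no binding was measured.

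Depth was 23212183 to 28469813 gene counts per library. At a count of 0 the upper limit is taken as 3 counts, or 0.105 to 0.129 CPM (counts rescaled so that each library has the same total); intervals and limits of this kind cover counting error only. All 6 microglia markers, among them Fcrls, Cx3cr1, Tmem119, P2ry12 and Sall1, were at 1 CPM or more in every library. Of all protein-coding genes 51.8% were. The markers' summed level was 15462 to 16740 TPM. TPM are counts divided by exon length and scaled to a common total, and they are used where levels of different genes are set side by side; CPM set the detection threshold. The labelled sex was checked as well. Xist was at 300.2 CPM ± 42.9 (SD, n = 4), and 4 Y-linked genes had between 233 and 1140 counts in every library, which goes against the label in each of the 4.

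Across the family the receptors fell into 2 tiers. Stab1, Mrc1, Msr1, Colec12 and Scarb1 reached 1 CPM in each of the 4 libraries, 5 of 10, and Stab1 and Mrc1 alone had a mean of at least 100 TPM. Marco, Stab2 and Olr1 had a handful of counts, and no read of any library was counted for Cd163 or Lyve1 (0 counts, 2 of 10). Of 21191 protein-coding genes, 51.8% reached 1 CPM in each library, 28.5% had 0 counts throughout and 7.47% averaged at least 100 TPM, so the share of receptors detected was near that of genes at large. The gap between the tiers was wide: the lowest of the upper tier, Scarb1, averaged 23.4 TPM and the highest of the lower tier, Marco, 0.209 TPM. Together the receptors took 0.307% ± 0.0137 (SD, n = 4) of all gene counts.

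**Figure D1:**
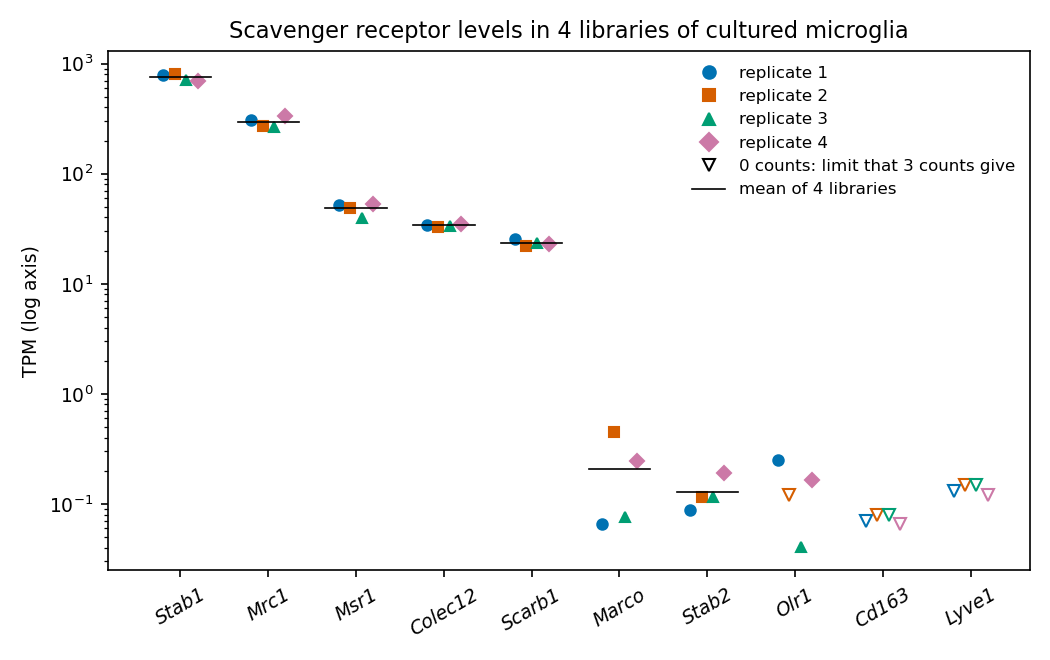
Level of each receptor in TPM (log axis) by library, in order of the mean; points are the 4 libraries, bars the mean of the 4 where no library is at 0, and open triangles the level that 3 counts would give in a library with 0 counts. Stab1 (700.4 to 799 TPM) leads, 5 receptors stand above 20 TPM, and the other 5 stand under 0.5 TPM.

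Stab1, the multidomain receptor for SPARC and acetylated lipoprotein, was the most abundant. It had 64017, 57022, 50591 and 60923 counts in replicates 1 to 4, or 2370, 2433, 2180 and 2140 CPM. Replicates 1 and 2 were the higher libraries and 3 and 4 the lower, within 1.14-fold of each other. At 752 TPM ± 51.1 (SD, n = 4) it lay at the 99.3rd percentile of protein-coding genes and made up 65.2% ± 2.86 of the summed TPM of the receptors.

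Stab2, its paralog and the main hyaluronan receptor of liver sinusoids, was near 0. It had 6, 7, 7 and 14 counts in replicates 1 to 4. All 34 counts pooled gave 0.333 CPM (exact Poisson 95% interval 0.2305 to 0.465), which is above 0 at this depth. Stab1 was 5921 times as high as Stab2 by mean TPM, with a counting interval from the pooled Stab2 counts of 4237 to 8550. In single libraries the ratio ran between 3704 in replicate 4 and 9082 in replicate 1. Exons of other genes cover 1.09% of the Stab1 exon bases and 1.61% of those of Stab2 (GENCODE M21), so overlap touches little of either gene.

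Mrc1, the mannose receptor (CD206), came after Stab1. It had 15502, 11964, 11714 and 17831 counts in replicates 1 to 4, or 574, 510.5, 504.6 and 626 CPM. Replicates 4 and 1 were the higher libraries and 2 and 3 the lower, an order that differs from that of Stab1. At 295 TPM ± 30.9 (SD, n = 4) it lay at the 97.8th percentile of protein-coding genes. Stab1 was 2.56, 2.95, 2.67 and 2.12 times as high as Mrc1 in replicates 1 to 4.

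Cd163, a receptor for haemoglobin, had 0 counts in all libraries. So did Lyve1, the lymphatic and border-macrophage hyaluronan receptor. The 0 counts allow up to 0.0799 TPM of Cd163 and 0.1495 TPM of Lyve1 in the library with the highest limit. Against 3 counts in each library, Mrc1 was at least 3347-fold higher than Cd163 and at least 1789-fold higher than Lyve1 in every library. Mrc1, Stab1, Cd163 and Lyve1 are the receptors here that are used as border macrophage markers, and they held both the highest and the lowest levels. Of 6 further markers of those cells, Ms4a7 (527 TPM ± 37.0, SD, n = 4) and Pf4 (309 TPM ± 14.4) reached 1 CPM in each library. Folr2 (1.72 TPM ± 0.673), Cbr2 (0.790 ± 0.237), F13a1 (0.284 ± 0.111) and Cd209f (0.0957 ± 0.117) did not. Among all protein-coding genes 51.8% reached 1 CPM in each library. The 6 markers summed to 795 to 892 TPM in the 4 libraries, and their part in the Mrc1 and Stab1 levels was not tested. In RNA from bulk sorted cells, fewer cells of a type and less RNA per cell cannot be told apart.

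The class A receptors were split as well. Msr1, a trimeric receptor for modified lipoprotein and amyloid aggregates, had 2613, 2162, 1733 and 2842 counts in replicates 1 to 4, or 96.7, 92.2, 74.7 and 99.8 CPM. Replicate 3 stood below the other libraries, and the highest library was 1.34 times the lowest. It averaged 48.6 TPM ± 6.13 (SD, n = 4), the 85.1st percentile of protein-coding genes. Marco, a collagenous receptor for bacteria and particles, had 1, 6, 1 and 4 counts, or 0.1175 CPM pooled (exact Poisson 95% interval 0.0607 to 0.205). Msr1 was 232 times as high as Marco by mean TPM, with a counting interval from the pooled Marco counts of 133 to 449. In single libraries the ratio ran between 109 in replicate 2 and 793 in replicate 1. It was 375 without replicate 2, and 405 with the longest single transcript as the length. Colec12, a collectin-like class A receptor, had 2351, 2004, 2027 and 2601 counts in replicates 1 to 4, or 87.0, 85.5, 87.3 and 91.4 CPM. Its libraries lay within 1.07-fold of each other, the narrowest range of the 5 detected receptors, at 34.1 TPM ± 0.904 (SD, n = 4).

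The lipoprotein receptors of the family differed too. Scarb1, the high-density lipoprotein receptor, had 1706, 1294, 1358 and 1636 counts in replicates 1 to 4, or 63.2, 55.2, 58.5 and 57.5 CPM. Replicate 1 was the highest library, and the mean was 23.4 TPM ± 1.55 (SD, n = 4). Olr1, the lectin-like receptor for oxidised lipoprotein, had 7, 0, 1 and 5 counts, or 0.127 CPM pooled (exact Poisson 95% interval 0.0678 to 0.218). Its counts sat mostly in replicates 1 and 4, and the 0 in replicate 2 allows up to 0.128 CPM. By mean TPM Scarb1 was 205 times as high as Olr1, with a counting interval from the pooled Olr1 counts of 120 to 385. In single libraries it ran between 102 in replicate 1 and 571 in replicate 3, and replicate 2, with 0 counts of Olr1, gives none. It was 329 without replicate 1, and 563 with the longest single transcript as the length, which is outside that interval.

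Neighbours in the order of levels were compared within each library, as differences of log2(TPM + 1). The order itself came from the same means, so the sign of a difference is no test. Stab1 exceeded Mrc1 by 1.35 ± 0.20 (SD, n = 4), Mrc1 exceeded Msr1 by 2.58 ± 0.12, Msr1 exceeded Colec12 by 0.49 ± 0.18, Colec12 exceeded Scarb1 by 0.53 ± 0.086 and Scarb1 exceeded Marco by 4.34 ± 0.29, each in 4 of 4 libraries. Each of these 5 had an exact two-sided sign-flip permutation p = 0.125, the smallest that 4 libraries can give, and 0.225 after Benjamini-Hochberg adjustment over the 9 neighbour comparisons, so none can pass 0.05. Marco and Stab2 (0.091 ± 0.20, exact p = 0.625), Stab2 and Olr1 (0.022 ± 0.16, exact p = 0.875) and Olr1 and Cd163 (0.15 ± 0.15, exact p = 0.25) had differences of about the size of their SD or smaller, and Cd163 and Lyve1 were both at 0. The order of Colec12 and Scarb1 rests on the length used. The merged exons of all isoforms are 8725 bases for Colec12 and 8500 for Scarb1, but the longest single transcripts are 8024 and 3093 bases. With the latter lengths Colec12 was at 28.1 TPM and Scarb1 at 48.7 TPM, a difference of -0.77 on the log2(TPM + 1) scale.

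The next question was whether any receptor varied between the libraries more than genes of like abundance. Stab1, Mrc1, Msr1, Colec12 and Scarb1 had enough counts for the test, and 0 of these 5 passed (edgeR deviance test against the trended dispersion, Benjamini-Hochberg adjusted p over 12879 genes, threshold 0.05), where 1.11% of all genes tested passed. Before adjustment 2 of the 5 were under 0.05, where 6.79% of all genes tested were, and DESeq2 marked 0 of the 5 as dispersion outliers. Those 2 were Msr1, with a coefficient of variation of 12.4% between libraries (unadjusted p = 0.0205, edgeR adjusted p = 0.485), and Mrc1, with 10.4% (unadjusted p = 0.0317, edgeR adjusted p = 0.600). Genes of like abundance had a variation beyond counting of 7.32% and 6.32% on the fitted trend. Leaving out 1 library moved both unadjusted p-values in either direction (edgeR deviance test). That of Msr1 was between 0.00292 without replicate 1 and 0.741 without replicate 3, and under 0.05 in the other 2 cases. That of Mrc1 was 0.00362 without replicate 1, 0.0488 without replicate 2, 0.0863 without replicate 3 and 0.216 without replicate 4. Stab1 varied by 6.26% and Scarb1 by 5.71%. Colec12 varied by 2.85%, close to the 2.12% that its counts alone give.

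**Figure D2:**
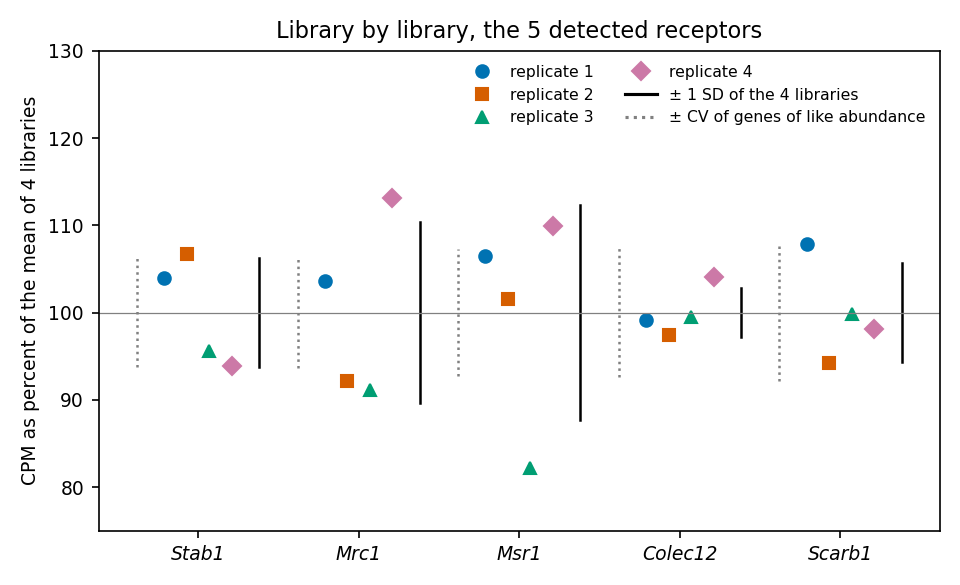
CPM of the 5 detected receptors in each library, as percent of the mean of the 4. Solid lines are ± 1 SD of the libraries, counting error included. Dotted lines are ± the fitted variation beyond counting of genes of like abundance. Mrc1 (10.4%) and Msr1 (12.4%) spread past their dotted lines, with replicate 3 lowest in both. Stab1 (6.26%) is about at its line (6.25%), and Scarb1 (5.71%) and Colec12 (2.85%) stay inside.

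A few marker genes of other cells in a glial culture passed the same spread test. Of all genes tested 1.11% passed, and 6.79% had an unadjusted p under 0.05 in edgeR. Of all protein-coding genes 51.8% reached 1 CPM in each library. The 6 astrocyte markers were all at 1 CPM or more and summed to 73.5, 117, 121 and 98.5 TPM in replicates 1 to 4; 2 of 6 passed, Gfap and Slc1a3, both lowest in replicate 1. Of the 6 fibroblast and mural markers 4 were at 1 CPM or more in every library, and the 6 summed to 73.6, 94.8, 117.5 and 76.2 TPM. That sum was mostly the contractile actin Acta2 (67.0, 88.0, 113 and 70.1 TPM), the 1 of 4 tested that passed. Col1a2 (1.98, 2.15, 1.01 and 1.34 TPM) and Dcn (1.96, 2.00, 0.698 and 1.70 TPM), both of fibroblasts, were lowest in replicate 3, where Lum had 0 counts. Of the 6 endothelial markers 1, Kdr, was at 1 CPM or more throughout, and 0 of the 2 tested passed (1 had an unadjusted p under 0.05 in edgeR). The 6 summed to 7.12, 7.65, 9.29 and 7.13 TPM, of which Kdr was from 4.47 TPM in replicate 1 to 8.23 TPM in replicate 3; Pecam1 was lowest in replicate 3 (0.187 TPM), Tek was at 0, and Cldn5 and Ptprb had counts in replicate 1 alone. The lymphatic marker Flt4 had 4 counts in all, Prox1 was at 1.01 TPM ± 0.350 (SD, n = 4) and Pdpn, the 1 of 2 tested that passed, at 43.5 ± 11.3. Of 3 monocyte markers Ly6c2 and Plac8 were at 0. Ccr2, the 1 tested, was at 1.51 to 2.52 CPM (0.997 TPM ± 0.272), above 1 CPM in every library, and did not pass. Colec12, which endothelial cells and astrocytes can express, kept within 1.07-fold in its CPM and was highest in replicate 4. The astrocyte sum and Kdr were highest in replicate 3, and Cdh5, the other endothelial marker tested, was at 0.963 to 1.15 CPM. By single gene, the astrocyte markers were highest in replicate 2 (Gfap, Slc1a2), replicate 3 (Slc1a3, Aldh1l1, Gja1) or replicate 4 (Aqp4). Msr1 was lowest in replicate 3 and highest in replicate 4. P2ry12, a microglial receptor gene, went in the same order at the ends, with 164 CPM in replicate 3 and 249 CPM in replicate 4 and the other 2 libraries between (edgeR adjusted p = 0.00102). The part of these markers in the receptors' values was not tested.

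**Figure D3:**
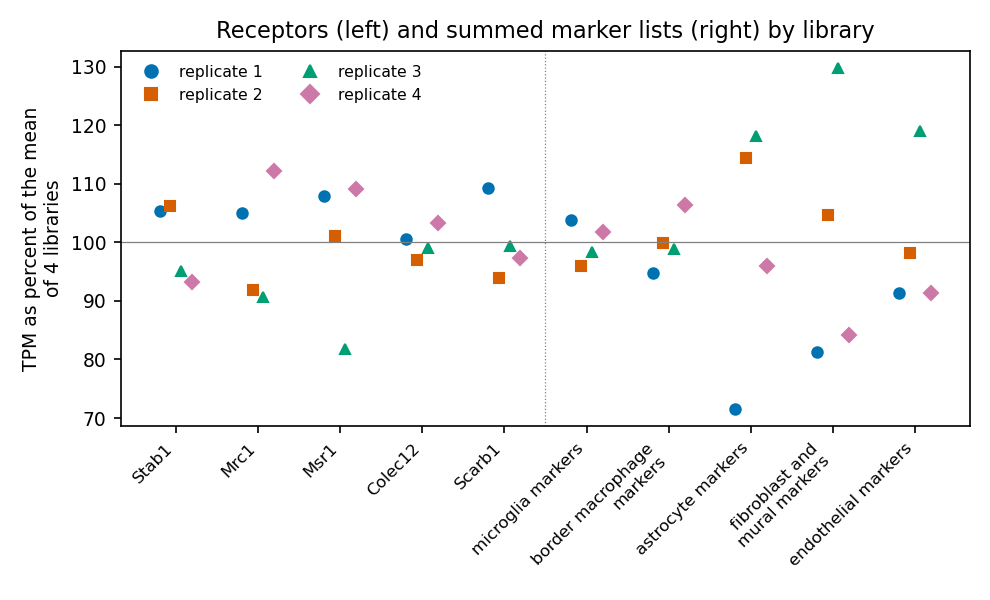
TPM in each library as percent of the mean of the 4, for the 5 detected receptors (left of the dotted line) and for the summed markers of microglia, border macrophages, astrocytes, fibroblasts with mural cells, and endothelium (right). Astrocyte marker sums range from 73.5 TPM in replicate 1 to 121 TPM in replicate 3. Colec12 is between 33.1 and 35.3 TPM, and the markers' part in it was not tested.

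Other scavenger receptors showed the same kind of range. Of 17 listed by class, 10 reached 1 CPM in each library, 6 averaged at least 100 TPM and 2 were at 0. Of all protein-coding genes these shares were 51.8%, 7.47% and 28.5%. The median of the 17 was 6.46 TPM ± 0.5615 (SD, n = 4), beside 11.8 TPM ± 0.748 for the 10 receptors and 1.68 TPM ± 0.123 for all protein-coding genes. The 11.8 TPM falls in the gap between Scarb1 (23.4 TPM) and Marco (0.209 TPM), where no receptor lies, so it is not a typical receptor level. Cd68, an endolysosomal sialoprotein of class D, was highest at 2142 TPM ± 56.8. Cd14, the lipopolysaccharide co-receptor, was at 1610 ± 51.8 and Lrp1, a large receptor of the lipoprotein receptor family, at 824 ± 69.1, both above Stab1. Cd163l1 and Dmbt1, cysteine-rich relatives of Cd163, were at 0 counts. None of the 13 that could be tested passed the spread test (1 had an unadjusted p under 0.05 in edgeR). Of all genes tested 1.11% passed, and 6.79% were under 0.05 before adjustment.

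**Figure D4:**
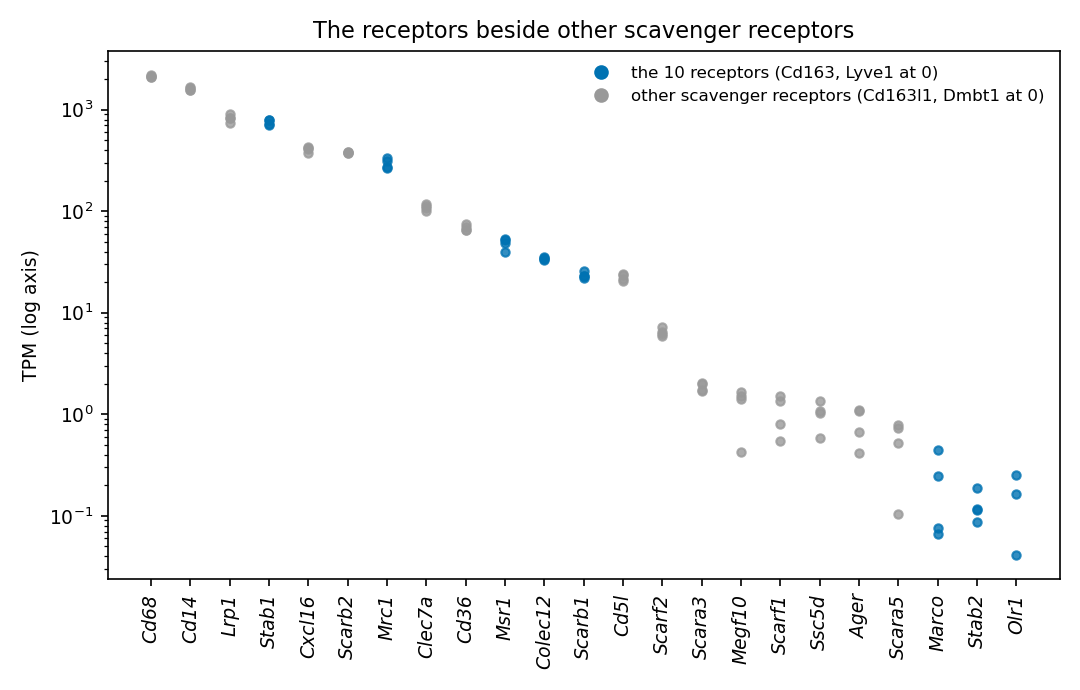
TPM (log axis) of the 10 receptors (blue) and of other scavenger receptors (grey) in order of the mean; each point is 1 library, and libraries at 0 are not drawn. Cd68 (2142 TPM), Cd14 (1610) and Lrp1 (824) stand above Stab1 (752), and Marco, Stab2 and Olr1 are the lowest of the genes drawn.

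Relatives of Mrc1 were lower than it. In the mannose receptor family, the collagen receptor Mrc2 was at 14.1 TPM ± 2.87 (SD, n = 4), Ly75 at 0.252 ± 0.162 and Pla2r1 at 0.0649 ± 0.0618, against 295 TPM for Mrc1. Among hyaluronan binders, Cd44, which shares a link domain with Lyve1 and Stab2, was at 53.8 ± 7.31 and Hmmr at 3.31 ± 0.0868, against 0.127 TPM for Stab2 and 0 for Lyve1. Of 8 genes of hyaluronan turnover, 3 were at 1 CPM or more in each library, beside 51.8% of all protein-coding genes. The 3 were the hyaluronidases Hyal2 (24.7 TPM ± 1.497) and Hyal1 (2.47 ± 0.341), and Cemip2 (3.52 ± 0.468). The synthases Has1 and Has2 were at 0 counts.

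Ligands were uneven. Apoe, carried on lipoproteins that Scarb1 binds, was at 50092 TPM ± 1678 (SD, n = 4), whereas Apoa1, the main protein of high-density lipoprotein, had 2 counts in all. Sparc, a matrix protein taken up by Stab1, was at 234.5 TPM ± 50.1 and passed the spread test, lowest in replicate 1 at 188 CPM and highest in replicate 3 at 322 CPM (edgeR adjusted p = 0.000127). Tnfsf12, a cytokine bound by human CD163, was at 87.5 TPM ± 3.35. Col3a1, a fibrillar collagen, was at 1.59 ± 0.486. Of the 7 ligands 5 reached 1 CPM in each library, beside 51.8% of all protein-coding genes. The spread test was passed by 1 of 5 tested, beside 1.11% of all genes tested.

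The machinery of uptake was detected almost throughout. Of 17 coat, adaptor and sorting genes, 16 reached 1 CPM in each library and 8 averaged at least 100 TPM, with a median of 90.2 TPM ± 4.404 (SD, n = 4). Among all protein-coding genes 51.8% reached 1 CPM in each library and 7.47% averaged at least 100 TPM. Clathrin light chain Clta was at 869 ± 15.3, the heavy chain Cltc at 516 ± 40.6 and the adaptor Dab2 at 393 ± 15.7. The lowest were Gulp1, an engulfment adaptor that binds stabilins (3.23 ± 0.911), and Pdzk1, the hepatic partner of Scarb1, at 0 counts. In the lipoprotein receptor family, 5 of 6 were at 1 CPM or more, led by the chaperone Lrpap1 (126 TPM ± 4.81) and Sorl1 (37.6 ± 3.26). Lrp2 was at 5.66 ± 1.35 and Vldlr at 0.200 ± 0.0616. None of the 16 uptake genes or the 6 lipoprotein receptors tested passed the spread test in edgeR. Before adjustment 0 and 1 of them had a p under 0.05. Of all genes tested 1.11% passed, and 6.79% were under 0.05 before adjustment.

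Haem breakdown genes were present beside the absent counts of Cd163. Of 6, 5 reached 1 CPM in each library, beside 51.8% of all protein-coding genes. Haem oxygenase Hmox1 was at 545 TPM ± 31.5 (SD, n = 4), the haem transporter Slc48a1 at 184 ± 6.77 and biliverdin reductase Blvrb at 166 ± 4.90. The iron exporter Slc40a1 was at 8.59 ± 0.921, and Hpx, encoding haemopexin, had 10 counts in all. All 4 genes of receptor shedding were detected, Adam10 (237 TPM ± 27.2), Adam17 (135 ± 6.96), Mmp14 (133 ± 4.55) and the inhibitor Timp3 (15.7 ± 3.39).

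Transcription factors and cytokine receptors known to act on these receptors were all detected, 17 of 17, with a median of 209 TPM ± 4.83 (SD, n = 4). Of all protein-coding genes 51.8% were detected in this way, and the 17 were chosen with earlier results of these data known. Among the highest were Csf1r (2830 ± 108) and Spi1 (610.5 ± 16.7), which encodes PU.1. The lowest were the oxysterol receptor Nr1h3 (2.41 ± 0.203) and Irf4 (1.90 ± 0.240), which acts downstream of interleukin-4 signalling. None of these 17, the 5 haem genes or the 4 shedding genes tested passed the spread test in edgeR. Before adjustment 0, 0 and 2 of them had a p under 0.05. Of all genes tested 1.11% passed, and 6.79% were under 0.05 before adjustment.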

How the data were processed

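RNA from sorted, cultured microglia was sequenced in 4 libraries. The deposited values are raw counts of reads per gene, whole numbers with no scaling, in 1 file for each library. The submitters' processing notes name STAR 2.7.10a, SAMtools 1.16.1, HTSeq 0.11.2 and the build mm39 (GRCm39). The annotation release, strand and overlap settings: not given in the sources used here; antisense or overlapping genes may therefore share reads with a receptor. Cells were released with trypsin and sorted, per the labels' protocols, and NEBNext Ultra II libraries were made. Summary lines (11.8% ± 0.159 of listed reads, SD, n = 4) stayed out of library sizes.

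CPM and TPM were computed here; exon lengths came from GENCODE M21 (GRCm38), matched by symbol (89.1% of symbols, 98.8% of counts). Merged exons are longer than most single transcripts. With the longest single transcript as the length, Msr1 and Scarb1 had higher TPM and the other receptors with counts had lower TPM. Spread was tested in edgeR 4.0.16 (R 4.3.3) with a 1-mean model, TMM, filterByExpr and the trended dispersion, the deviance against a chi-square with 3 degrees of freedom; a 1-group design allows no contrast. The procedure was tested on simulated counts with the same dispersion for every gene and planted changes larger than the receptors' ranges. That run therefore does not tell whether spread of the receptors' size would be called. Alternatives were other scaling, filters, dispersions, DESeq2 1.42.0, pseudocounts, thresholds, lengths and leaving out each library.

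The receptors, the 16 other lists and the tests were chosen with earlier results of these data known. Named were all 10 receptors, the 3 highest and 2 lowest genes of each list, genes at 0 or past the spread test, and any marker; Hp was named after its values were seen. Some genes that this rule takes are in the counts but not reported here by name. Cd163l1 was read as Scart1, its RefSeq synonym. No gene was sought with a pattern like a receptor's, because 4 libraries of 1 group are too few for a correlation across libraries.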

Additional observations from a re-analysis of the deposited data

Results flagged for a closer look

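Dixon's criterion was applied to the receptors, the markers, and those genes of the other lists that the naming rule takes, with Hp added. Of these, 81 had any counts, and 6 of the 81 had 1 library far from the other 3. None of the 8 receptors with counts was among them. Chance gives about 1 in 20, but 6 of 81 cannot be set against that rate. Hp was added for its values, and some genes were taken for low level or spread. The rate also does not apply to 4 of the 6, Cldn5, Ptprb, Apoa1 and Flt4. With 0 counts in the other 3 libraries a gene meets the criterion whatever its count. Hp, which encodes haptoglobin, a carrier of haemoglobin, was at 5.89 CPM in replicate 1, from 159 counts. It had 0, 0 and 4 counts in replicates 2, 3 and 4. Hp was singled out after its values were seen. Cldn5 (0.592 CPM, 16 counts) and Ptprb (0.296 CPM, 8 counts), both endothelial, had all their counts in replicate 1. Apoa1 (0.0853 CPM, 2 counts) and Flt4 (0.171 CPM, 4 counts) had theirs in replicate 2. Cbr2, a border macrophage marker, was low in replicate 3, at 0.172 CPM against 0.341 to 0.370 CPM in the others.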

How the results depend on the processing

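Of 56 alternative values of the differences between neighbours, 52 kept their direction and 4 reversed, and 10 moved by more than the SD between libraries, 3 with a pseudocount of 0.1, 3 with 10 and 4 with the longest single transcript. Of 171 other alternative values, 162 moved by no more than the SD (for a ratio, the counting interval) or by no more than 1.5 times for a count or a bound, and 9 moved further. Without any 1 library the count of receptors at 1 CPM or more stayed at 5, the count at 0 stayed at 2 and the count past the spread test stayed at 0. With the longest single transcript as the length, Msr1 was at 64.2 TPM, Scarb1 at 48.7 and Colec12 at 28.1, and Colec12 minus Scarb1 was -0.77 on the log2(TPM + 1) scale; its shorter Scarb1 length accounts for the turn. With those lengths Mrc1 minus Msr1 was 2.03, Msr1 minus Colec12 1.155 and Scarb1 minus Marco 5.43, and Scarb1 was 563 times as high as Olr1. Leaving out 1 library gave -0.0049 to 0.14 for Marco minus Stab2 (-0.0049 without replicate 2) and -0.024 to 0.096 for Stab2 minus Olr1 (-0.024 without replicate 2 and -0.0048 without replicate 3); the cause was not tested. At 5 CPM, 3 of the 7 ligands counted as detected, not 5. Of all genes, 143 passed the spread test, 532 with a common dispersion, 69 by DESeq2 and 47 to 118 without 1 library (47 without replicate 1 and 52 without replicate 3). Leaving out 1 library gave ratios of mean TPM of 5266 to 7236 for Stab1 over Stab2, 184 to 375 for Msr1 over Marco and 157 to 329 for Scarb1 over Olr1; these and the ratios with other lengths were added after seeing the data. The gap between Scarb1 and Marco depends on the pseudocount, 6.42 with 0.1 and 1.71 with 10. No paired analysis was possible because all 4 libraries belong to 1 group. Depth limits Marco, Stab2 and Olr1, whose levels rest on 12, 34 and 13 counts.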
